A study of Homo sapiens with 12 samples.

Results

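Loss of the aryl hydrocarbon receptor (AHR) was examined in MDA-MB-231, a triple negative human breast cancer line with mesenchymal features, by comparing the 3 arrays of AHR knockout cells with the 3 arrays of control cells. These 6 arrays were chosen by the cell line and genotype in their titles, out of 12 in the series, and the other 6 hold the same comparison in SUM149, an inflammatory breast cancer line. Labelled RNA was hybridised to Affymetrix whole-transcript arrays, and the values are log2 expression for 31720 genes, so that a difference of 1 is a 2-fold change. The knockout cells carried lentiCRISPR v2, a lentivirus that delivers Cas9 together with a guide RNA, and a pair of guides against AHR was used. The controls received Cas9 without a guide RNA. Both were grown in the same serum-containing medium with no AHR ligand named. After transduction, cells were serially diluted in multi-well plates and selected with puromycin, and how many clones the 3 knockout arrays stand for is not stated. The submitters call the 3 arrays of a group biological replicates without saying whether they came from separate cultures. Each p-value below is set against the variation among replicate arrays alone, and some of it may be technical. In limma that variation is partly shared over genes unless called unmoderated, and contrasts between the lines draw on all 12 arrays. Knockout and control cells came from separate transductions, so that a difference that arose then cannot be told apart from the loss of AHR. Control array 2 stood apart from the others in part: on the second principal component of the 6 arrays, which held 18.3% of the variance, it was at -25.7 and the other 5 arrays lay between -5.51 and 15.7. Without it every named gene kept its direction, but CYP1A1 (adjusted p = 0.104 by limma) and TIPARP (adjusted p = 0.0676 by limma) did not pass the test. That was not particular to this array: TIPARP missed the threshold without any 1 of the 6 arrays, and CYP1A1 passed in only 1 of those fits.

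The AHR is a ligand-activated transcription factor of the basic helix-loop-helix PAS family that waits in the cytoplasm with chaperones. On binding an environmental ligand such as dioxin or a tryptophan metabolite such as kynurenine, it enters the nucleus, pairs with ARNT and binds DNA at dioxin response elements with the core GCGTG. Cytochrome P450 genes of the CYP1 family are its classic targets and are widely read as a measure of its activity, and TIPARP is a target that feeds back to restrain it. The comparison asks which genes depend on the baseline activity of the AHR in these cells.

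The guides are shown because they define the knockout. Per the labels, both lie in the first exon of AHR, on chromosome 7, and they are written 5′ to 3′ as the protocol gives them.
AHR guide 1: cctacgccagtcgcaagcgg
AHR guide 2: ccgagcgcgtcctcatcgcg
Each is 20 bases long, with 14 G or C bases in guide 1 and 15 in guide 2.

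The stretches before the start sites of CYP1A1 and TIPARP are shown because both are textbook targets of the receptor and both fell in the knockout cells. They are the 250 bases upstream of the annotated start in RefSeq, build GRCh38.p14, written 5′ to 3′ on the strand of the gene. Capitals mark the core of the dioxin response element, GCGTG, or CACGC where it lies on the opposite strand. The CYP1A1 stretch is chr15:74725529-74725778 on the minus strand, and the TIPARP stretch, before the first of its 3 start sites in the table, is chr3:156674340-156674589 on the plus strand.
CYP1A1: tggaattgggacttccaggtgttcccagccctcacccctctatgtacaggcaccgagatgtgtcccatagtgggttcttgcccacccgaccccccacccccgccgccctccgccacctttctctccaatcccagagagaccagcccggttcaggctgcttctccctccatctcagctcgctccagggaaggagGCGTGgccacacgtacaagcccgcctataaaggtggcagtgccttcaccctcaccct
TIPARP: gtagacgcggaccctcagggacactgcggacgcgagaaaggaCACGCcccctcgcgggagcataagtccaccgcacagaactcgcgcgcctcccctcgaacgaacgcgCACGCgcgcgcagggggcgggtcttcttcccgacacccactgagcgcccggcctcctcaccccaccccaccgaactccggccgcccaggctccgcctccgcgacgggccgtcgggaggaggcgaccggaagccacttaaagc
In CYP1A1 the core began 57 bases before the start site, and in TIPARP 2 cores on the opposite strand began 208 and 142 bases before it. Among all 35116 such stretches of 250 bases in the table, 32.2% held the core on either strand and 10.2% held 2 or more, so that a match here is common and is not by itself a binding site. The longer form TNGCGTG, searched on both strands and always containing the core, was in 4.52% of the stretches and in neither of the ones printed. In addition to CYP1A1 and TIPARP, the table lists AHR, GPC6 and VIM, and none of their stretches, nor those before the other start sites of TIPARP, held the core. CYP1B1, HAS2 and IL13RA2 were not matched.

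The targeted gene itself gave less signal in the knockout. AHR (ENSG00000106546_at) was at log2 levels of 10.65, 10.57 and 10.64 on the control arrays and 10.02, 9.94 and 9.98 on the knockout arrays. All knockout arrays were lower than all control arrays, but the gene stayed bright in both groups. The mean fell from 10.62 ± 0.05 (SD, n = 3) to 9.98 ± 0.04 (SD, n = 3), a log2 change of -0.64 (SE 0.07, 95% interval -0.80 to -0.48, adjusted p = 0.00707 by limma), which left 64.2% of the control signal. Cuts in an exon usually act on the protein through small insertions or deletions, and the transcript can persist. Where the probes for AHR lie was not given, so this signal measures transcript and does not check the edit. The paper reports that its AHR knockouts were checked separately, by DNA sequencing and by blots for the protein. Those checks are not part of the array values. Ordered by size of fall, AHR was number 164 among the genes called lower.

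CYP1B1 lost most of its signal and was the named gene that fell furthest. CYP1B1 (ENSG00000138061_at), which encodes the P450 enzyme that hydroxylates estradiol and polycyclic hydrocarbons, stood at 7.05, 7.08 and 7.14 on the control arrays and at 4.26, 3.91 and 3.98 on the knockout arrays. The nearest arrays of the groups were 2.79 apart, many times the spread within either group, although the knockout arrays were less alike (SD 0.19) than the controls (SD 0.05). The mean fell from 7.09 to 4.05, a log2 change of -3.04 (SE 0.10, adjusted p = 0.00011 by limma), or 8.22-fold with a 95% interval of 6.93 to 9.76. The knockout kept 12.2% of the control signal. Its knockout arrays lay above their array medians but were not compared with background, and whether a floor limited the fold was not tested. Of all genes called lower, only 1 fell further.

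CYP1A1, the P450 most often used to read AHR activity, fell by less and was measured less well. CYP1A1 (ENSG00000140465_at) was at 3.68, 4.02 and 4.15 on the control arrays and at 3.14, 2.84 and 3.07 on the knockout arrays. The groups did not overlap, but the levels were low beside array medians of 3.66 to 3.70. The knockout arrays lay below their array medians, control array 1 lay near its own, and control arrays 2 and 3 lay above theirs. Values were not compared with background. The log2 change was -0.93 (SE 0.14, 95% interval -1.27 to -0.60, adjusted p = 0.027 by limma), or 1.91-fold, from a control mean of 3.95 ± 0.24 (SD, n = 3) to 3.02 ± 0.15 (SD, n = 3). The call did not hold in 5 of the 6 fits that each left out 1 array (adjusted p from 0.0764 to 0.104). It held only without control replicate 1, at an adjusted p of 0.0254.

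TIPARP, which encodes an ADP-ribosyltransferase that modifies the receptor and damps its activity, fell modestly. TIPARP (ENSG00000163659_at) was at 8.72, 8.72 and 8.84 on the control arrays and at 8.21, 8.25 and 8.29 on the knockout arrays. All knockout arrays were lower, and the array values within a group differed little. The log2 change was -0.51 (SE 0.07, 95% interval -0.68 to -0.34, adjusted p = 0.0203 by limma), or 1.42-fold, so that 70.2% of the control signal stayed. With any 1 of the 6 arrays left out, the fold was nearly the same but the adjusted p rose to between 0.0676 and 0.0914.

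HAS2, the gene of a hyaluronan synthase that makes the matrix polysaccharide hyaluronan, was also lower in the knockout. HAS2 (ENSG00000170961_at) was at 7.64, 7.55 and 7.60 on the control arrays and at 6.48, 6.43 and 6.24 on the knockout arrays. The groups were 1.08 apart at their nearest arrays, and knockout array 3 was the lowest of the 6. The mean fell from 7.60 ± 0.04 (SD, n = 3) to 6.38 ± 0.12 (SD, n = 3), a log2 change of -1.22 (SE 0.08, adjusted p = 0.00146 by limma), or 2.33-fold. CYP1B1, HAS2, IL13RA2 and GPC6 had been the changes that were largest in both lines in an earlier analysis of these same arrays, so their calls are not independent evidence.

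IL13RA2 and GPC6, both genes of cell surface proteins, rose in the knockout. IL13RA2 (ENSG00000123496_at), the gene of a high-affinity receptor that captures interleukin 13 and is often described as a decoy, was at 3.00, 2.93 and 2.95 on the control arrays and at 5.48, 5.53 and 5.33 on the knockout arrays. It lay below the array medians in every control and well above them in every knockout array. The log2 change was 2.49 (SE 0.08, 95% interval 2.30 to 2.68, adjusted p = 0.00011 by limma), or 5.61-fold, and only 1 gene called higher rose further. The control level was not compared with background.

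GPC6 (ENSG00000183098_at), the gene of glypican 6, a heparan sulfate proteoglycan anchored in the membrane, was at 5.36, 5.47 and 5.31 on the control arrays and at 6.40, 6.34 and 6.35 on the knockout arrays. The knockout arrays were all higher and close to each other. The mean rose from 5.38 ± 0.08 (SD, n = 3) to 6.36 ± 0.03 (SD, n = 3), a log2 change of 0.98 (SE 0.07, adjusted p = 0.00176 by limma), or 1.97-fold. It was placed 45 among the genes called higher by size of change.

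VIM, which encodes the intermediate filament vimentin of mesenchymal cells, gave no detectable difference. VIM (ENSG00000026025_at) was at 8.60, 8.57 and 8.61 on the control arrays and at 8.60, 8.53 and 8.55 on the knockout arrays. The groups overlapped. The log2 difference was -0.03 with a 95% interval of -0.18 to 0.12 (adjusted p = 0.874 by limma), which allows a change of up to 1.13-fold down or 1.09-fold up. The cell line labels were checked by VIM alone, so that the check is partial. VIM was brighter on all 6 MDA-MB-231 arrays, at 8.53 to 8.61, than on the SUM149 arrays. There it was at 7.27 to 7.32 in controls and 7.5 to 7.61 in knockouts. By exact two-sided permutation of its arrays alone, a single gene in 3 against 3 arrays cannot go below a p of 0.1. All named genes but VIM were at that value, and VIM was at an exact permutation p of 0.3.

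**Figure D1:**
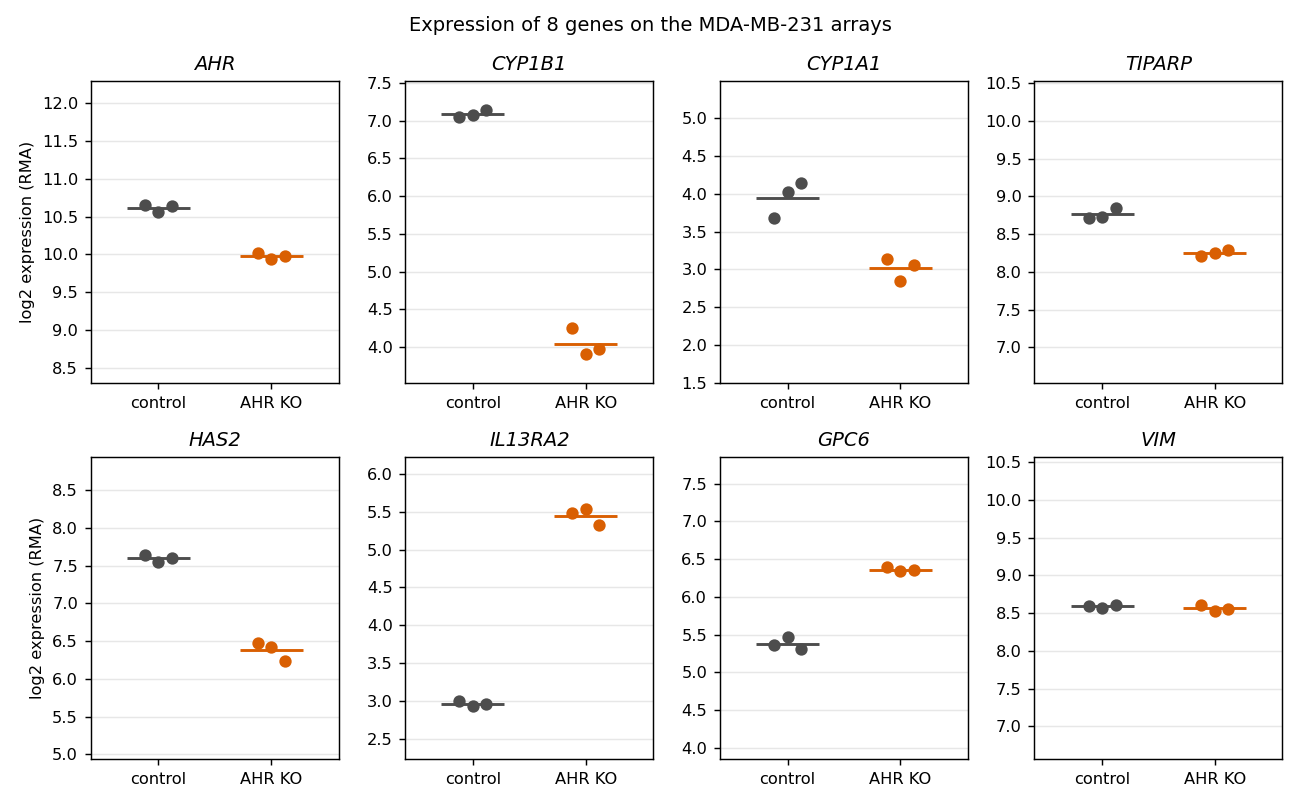
Log2 expression of 8 named genes on the MDA-MB-231 arrays, 1 point per array, with a line at the mean of each group of 3; each vertical axis spans 4 log2 units. CYP1B1 fell by 3.04 and IL13RA2 rose by 2.49, AHR fell by 0.64, TIPARP fell by 0.51, and the groups of VIM overlap.

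Among the genes that passed the test, more fell than rose. At an adjusted p of 0.05 or less by limma, 340 of the 31720 genes were lower in the knockout, 1.07%, and 198 were higher, 0.624%. AHR, CYP1B1, CYP1A1, TIPARP and HAS2 were among the former, IL13RA2 and GPC6 among the latter. At an unadjusted p of 0.05 or less, the numbers were 2415 and 2287, which are closer to each other. How many passed depended on the arrays and the model, while falls outnumbered rises in each fit. Leaving out any 1 of the 6 arrays gave 117 to 161 lower and 75 to 91 higher genes, from control replicate 1 (142 and 87), 2 (161 and 91) and 3 (136 and 85) to knockout replicate 1 (141 and 77), 2 (134 and 82) and 3 (117 and 75). A variance trend with robust moderation in limma gave 980 and 906. The median change over all genes was 0.0015 on the log2 scale. The values were quantile-normalized, so these are changes relative to the bulk of the genes.

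Most of the changes were small. The median gene called lower fell by 0.62 on the log2 scale, or 1.54-fold, and the median gene called higher rose by 0.63, or 1.55-fold. A fall of at least 2-fold was found for 59 of the genes called lower (17.4%) and a rise of that size for 41 of those called higher (20.7%). Changes of at least 4-fold numbered 5 and 6. The smallest changes called were 1.28-fold down and 1.29-fold up, and the median standard error over all genes was 0.0995 on the log2 scale. TIPARP, GPC6, AHR and CYP1A1 thus lay among the 438 calls below 2-fold, while HAS2, CYP1B1 and IL13RA2 lay outside them.

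In all 340 genes called lower every knockout array was below every control array, and in all 198 called higher every one was above. By itself that separation was common: 10.9% of all genes were separated downward and 11.2% upward, 3465 and 3538 genes. Each of the 7 named genes that changed met it, and VIM did not.

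**Figure D2:**
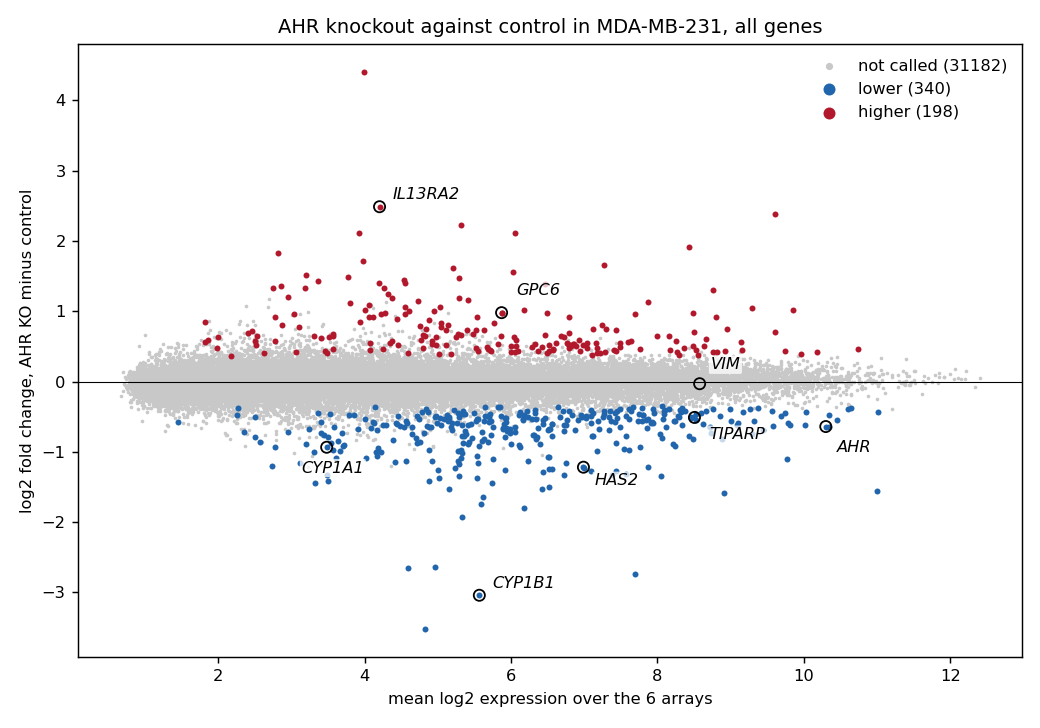
Log2 fold change (knockout minus control) against mean log2 expression over the 6 MDA-MB-231 arrays, 1 point per gene, with the 340 genes called lower in blue, the 198 called higher in red, the rest in grey and the 8 named genes circled. CYP1B1 and IL13RA2 lie far from the line at 0, CYP1A1 at a low level, and AHR and VIM among the bright genes.

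Calls were most frequent among bright genes, and the falls more so than the rises. With genes split into 3 equal classes by their mean over the 6 arrays, 270 of the genes called lower were in the bright class, 63 in the middle and 7 in the dim class. Of the genes called higher, 129 were bright, 57 middle and 12 dim. In the bright class 2.55% of genes were lower and 1.22% higher, against 0.0662% and 0.113% in the dim class. The spread between replicate arrays differed between the classes as well, with a median SD of 0.0755 in the bright and 0.153 in the dim class, and its part in these shares was not tested. Only 42 of the genes called lower, CYP1A1 among them, had a knockout mean below the median level of 3.68, and 298 stayed above it in both groups, as AHR, CYP1B1, TIPARP and HAS2 did. A control mean below that level was found for 46 of the genes called higher, IL13RA2 among them. Among the changes of at least 2-fold, 17 of the 41 rises started from a control mean below the median, and 12 of the 59 falls ended below it.

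The values could be paired with a gene symbol for the 8 named genes only, and the rest are known here by their row identifiers. The gene with the largest fall, ENSG00000204287_at, was at 6.64, 6.59 and 6.53 on the control arrays and at 2.99, 3.2 and 3.01 on the knockout arrays, a log2 change of -3.52 (SE 0.08, adjusted p = 3.94e-05 by limma), which exceeded that of CYP1B1. In SUM149 this gene was dim already in control cells, at a mean of 2.93, and its change there of -0.25 did not pass the test (adjusted p = 0.403 by limma). The gene after CYP1B1 in size of fall, ENSG00000196611_at, was at 9.13, 9.01 and 9.03 on the control arrays and at 6.46, 6.37 and 6.15 on the knockout arrays, a log2 change of -2.73 (adjusted p = 0.00011 by limma). It fell in SUM149 too, by 0.55 (adjusted p = 0.0352 by limma), and the fall was larger in MDA-MB-231 (adjusted p = 9.59e-05 by the interaction contrast in limma, the difference between the knockout effects of the lines).

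The largest rise was that of ENSG00000261780_at, from 1.46, 2.10 and 1.81 on the control arrays to 6.01, 6.47 and 6.12 on the knockout arrays. Its control arrays were far below the array medians, in the dim class, and were not compared with background, so the fold rests on a level not shown to be above it. Its knockout arrays were far above the medians. The log2 change of 4.41, or 21.2-fold (adjusted p = 0.000229 by limma), had no counterpart past the threshold in SUM149, where the change was 0.03 (adjusted p = 0.959 by limma). The gene after IL13RA2 in size of rise, ENSG00000214049_at, went from 8.54, 8.37 and 8.34 on the control arrays to 10.85, 10.75 and 10.82 on the knockout arrays, a log2 change of 2.39 or 5.22-fold (adjusted p = 0.00011 by limma). In SUM149 the same gene moved the other way, from a mean of 11.2 to 10.7 (log2 change -0.49, adjusted p = 0.000447 by limma), and the difference between the lines was 2.87 (adjusted p = 4.37e-08 by limma). These 4 genes were chosen by size after the values were seen.

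The knockout effect on the named genes was then set beside that in SUM149, with all 12 arrays in a model with 4 group means. Over all genes, the effect differed between the lines for 4173, or 13.2%, so that a difference as such is frequent. AHR fell by 1.45 in SUM149, from 9.35 to 7.89, which left 36.6% of the control signal there against 64.2% in MDA-MB-231. The fall in MDA-MB-231 was smaller by 0.81 (95% interval 0.60 to 1.03, adjusted p = 0.000264 by limma). The AHR level of MDA-MB-231 controls was also above that of SUM149 controls, and the MDA-MB-231 knockout arrays, at 9.94 to 10.02, read higher than the SUM149 control arrays, at 9.26 to 9.48.

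Of the receptor's target genes, the effects on CYP1B1 and CYP1A1 gave a difference between the lines that did not pass the test, and that on TIPARP did. CYP1B1 fell by 3.47 in SUM149 and by 0.43 less in MDA-MB-231 (95% interval 0.09 to 0.77), an interval without 0 but not a call after adjustment over all genes (adjusted p = 0.106 by limma). Knockout levels of CYP1B1 were not compared with background in either line. CYP1A1 fell by 0.74 in SUM149, and the difference of -0.19 had a wide interval, -0.79 to 0.40 (adjusted p = 0.733 by limma). TIPARP fell by 0.86 in SUM149, more than in MDA-MB-231 by 0.35 (95% interval 0.15 to 0.55, adjusted p = 0.0242 by limma).

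HAS2 showed the widest gap between the lines among the named genes. In SUM149 its log2 level was 9.52, 9.52 and 9.46 on the control arrays and 5.83, 5.72 and 5.80 on the knockout arrays, a 13.1-fold fall that left 7.62% of the control signal against 43.0% in MDA-MB-231. The fall in MDA-MB-231 was smaller by 2.50 on the log2 scale (95% interval 2.28 to 2.72, adjusted p = 1.45e-07 by limma). As MDA-MB-231 minus SUM149, the log2 level differed by -1.90 in control cells and by 0.60 in knockout cells, so that the order of the lines turned.

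The rises differed as well. IL13RA2 rose by 1.92 in SUM149, or 3.79-fold, and by 0.57 more in MDA-MB-231 (95% interval 0.34 to 0.79, adjusted p = 0.00349 by limma). GPC6 rose by 1.96 in SUM149, or 3.90-fold, and by less in MDA-MB-231, with a difference of -0.98 (95% interval -1.23 to -0.74, adjusted p = 0.000188 by limma). VIM rose by 0.28 in SUM149 (adjusted p = 0.00488 by limma), where MDA-MB-231 gave no detectable change, and the difference between the lines was -0.31 (95% interval -0.49 to -0.13, adjusted p = 0.0254 by limma).

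**Figure D3:**
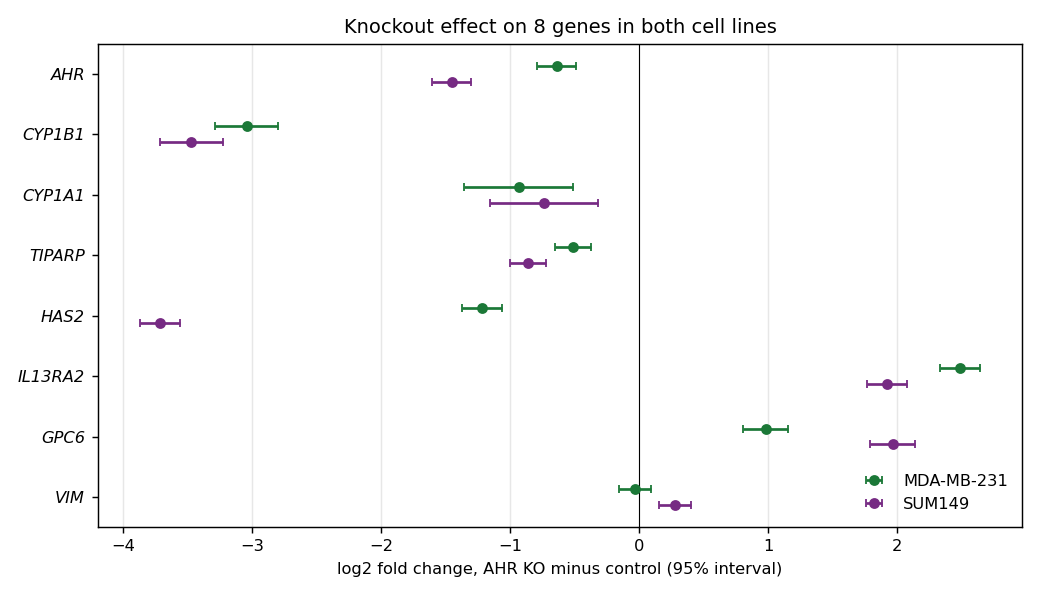
Log2 fold change of 8 named genes in MDA-MB-231 (green) and SUM149 (purple), with bars for the 95% interval from the model of all 12 arrays. HAS2 fell by 1.22 in MDA-MB-231 and fell by 3.71 in SUM149, GPC6 rose by 0.98 and 1.96, and only IL13RA2 among the named genes changed more in MDA-MB-231 by a difference that passed the test.

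Genes called in MDA-MB-231 were then looked up in SUM149, fitted on its own 6 arrays, which share no array with the comparison above. In SUM149, 2146 genes were lower (6.77%) and 2257 higher (7.12%). Of the 340 genes lower in MDA-MB-231, 87 were lower in SUM149 too (25.6% of the former list and 4.05% of the latter), 67 were higher there (19.7%) and 186 were not called. Of the 198 genes higher in MDA-MB-231, 25 were also higher in SUM149 (12.6%, and 1.11% of the SUM149 list), 38 were lower (19.2%) and 135 were not called. By the model of all 12 arrays, AHR, CYP1B1, CYP1A1, TIPARP and HAS2 fell and IL13RA2 and GPC6 rose in SUM149 as well. CYP1B1, HAS2, IL13RA2 and GPC6 had been picked as the largest changes in both lines on these same arrays, so their match was built in.

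In SUM149 the median change of both lists was near 0. It was -0.069 for the genes lower in MDA-MB-231 and -0.037 for the genes higher, against 0.0137 over all genes. A fall in SUM149, of any size, was found for 188 of the 340 (55.3%, where 47.2% of all genes fell), and a rise for 90 of the 198 (45.5%, where 52.8% of all genes rose). Genes with larger changes gave a similar picture: of the 59 that fell at least 2-fold in MDA-MB-231, 14 were lower and 12 higher in SUM149, and of the 41 that rose as much, 4 were higher and 6 lower.

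**Figure D4:**
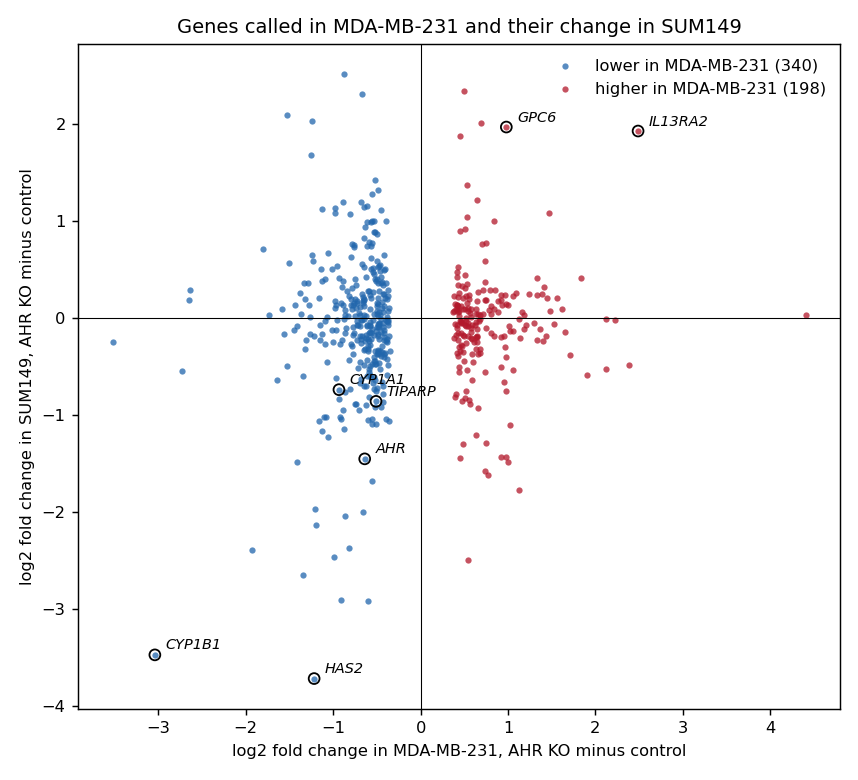
Log2 fold change in SUM149 (own 6 arrays, vertical) against that in MDA-MB-231 (horizontal) for the 538 genes called in MDA-MB-231, 1 point per gene, blue for lower and red for higher, with 7 named genes circled. Points lie on both sides of the line at 0 for SUM149, with 188 of 340 blue points below it and 90 of 198 red points above it, and CYP1B1 and HAS2 stand at the lower left.

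Arrays of a group correlated at 0.9939 to 0.995 over genes and arrays of different groups at 0.9922 to 0.9927. The first principal component of the 6 arrays held 35.3% of the variance and placed the controls between -19.4 and -17.8 and the knockouts between 18 and 18.9. The 538 genes called, 1.7% of all genes, held 30.5% of the squared weights of that component, and the 8 named genes 1.43%. The component separates the same groups as the calls, so a high share in called genes was built in. The weights outside the 538 lay with genes below the threshold, and how much of them is array noise was not tested. No 2 arrays were copies, since at least 31618 genes differed between any pair.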

How the data were processed

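Total RNA was biotin-labelled and hybridised to Affymetrix arrays, with 3 arrays in each of the 4 groups. Expression values on the log2 scale were deposited by the authors after RMA (background correction, quantile normalization and summary of probes), 1 for each of 31720 row identifiers on each array, with 0 missing. The submitters' processing notes name affy 1.48.0 and R 3.2.3; the genome build and the probe set definition are not given in the sources used here. Quantile normalization hides a shift common to most genes, and summarised values carry no read depth, so precision rests on how many arrays there were.

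The deposited log2 values of the 6 MDA-MB-231 arrays were fitted with limma 3.58.1 in R 4.3.3 (lmFit and eBayes, 4 residual degrees of freedom, no filter on dim genes). The Benjamini-Hochberg adjustment ran over all genes, and calls were made where the adjusted p was at most 0.05. For differences between the lines, and for SUM149 p-values of single genes, all 12 arrays were fitted with 4 group means (8 residual degrees of freedom). The steps were tested on simulated data. Tables and plots used Python 3.11.15, pandas 2.3.3 and matplotlib 3.10.9.

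Groups and replicate numbers came from the titles. Number columns not mapped to a sample of the series: 0. The members, gene lists and tests were chosen with earlier results of these data known. The rule named 8 genes (AHR, CYP1B1, CYP1A1, TIPARP, HAS2, IL13RA2, GPC6 and VIM), the genes that moved furthest in either direction and that a table pairs with a symbol, and members of fixed lists. The reference table named 0 of the row identifiers, so only the 8 genes, whose symbols and row identifiers were supplied as pairs, are named. The fixed lists (655 symbols), neighbouring genes, promoter letters over the called genes and the epithelial markers were not analysed here. Sequences before start sites came from RefSeq (GRCh38.p14), with 5 of the 8 genes matched by symbol, and the guides came from the labels' treatment protocol.

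Same-numbered control and knockout arrays did not deviate together (correlations of 0.0113, -0.0088 and -0.0173 over genes), so the numbers were not taken as pairs. Alternatives were a fit of 12 arrays, a variance trend with robust moderation, unmoderated statistics, removal of the 33.3% of genes with the lowest mean, median centring, a second quantile normalization, a replicate block, an adjusted p of 0.01, a change of at least 1.5-fold and leaving out each array.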

Additional observations from a re-analysis of the deposited data

Results flagged for a closer look

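For 6 of the 8 named genes the effect of the knockout differed between MDA-MB-231 and SUM149 by the interaction contrast in limma, over all 12 arrays. As the effect in MDA-MB-231 minus that in SUM149 on the log2 scale, the difference was 0.81 for AHR, 0.35 for TIPARP and 2.50 for HAS2, all of which fell less in MDA-MB-231. It was 0.57 for IL13RA2, which rose more in MDA-MB-231, and -0.98 for GPC6, which rose less. For VIM it was -0.31, where VIM rose in SUM149 and did not pass the test in MDA-MB-231. Over all genes 13.2% differed in this way. That share is not a like benchmark for the named genes. CYP1B1, HAS2, IL13RA2 and GPC6 had been picked as the largest changes in both lines on these same arrays. With a replicate block, the differences for TIPARP and VIM missed the threshold (adjusted p = 0.074 and 0.104 by limma).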

How the results depend on the processing

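No named gene changed direction under any of the 15 alternatives. CYP1B1, HAS2, IL13RA2 and GPC6 stayed past the threshold in all 15 (highest adjusted p by limma 0.0094, 0.0221, 0.00665 and 0.0291), and VIM in none. The genes that stayed in all 15 had been picked as the largest changes in both lines on these same arrays. Their staying was thus largely built in and is not independent evidence. AHR stayed in 14, CYP1A1 in 7, with an adjusted p of 0.119 unmoderated, and TIPARP in 6. Without 1 array, TIPARP missed the threshold in all 6 fits and CYP1A1 in 5.

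The counts of calls moved more. With 12 arrays in 1 model, 694 genes were lower and 549 higher. A variance trend with robust moderation gave 980 and 906, and removal of the dimmest 33.3% of genes gave 542 and 339. An adjusted p of 0.01 left 115 and 66, and a change of at least 1.5-fold left 193 and 109. Without 1 array, 117 to 161 genes were lower and 75 to 91 higher, with a log2 change of AHR between -0.67 and -0.62 (adjusted p 0.0299 to 0.0428). Among the fits without 1 array, the fewest calls were without knockout replicate 3. In every one of those fits, 101 of the 340 lower and 62 of the 198 higher genes were called. The cause of these moves was not tested, and some of these fits also had fewer arrays or genes. Unmoderated statistics (273 and 202), median centring (339 and 169) and a second quantile normalization (339 and 200) stayed within 1.5 times. The genes behind the counts were less alike: the unmoderated fit shared only 191 of the 340 lower and 101 of the 198 higher genes. Median centring shared 328 and 167 of them, and the second quantile normalization 326 and 188.

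In the fit with a replicate block, calls numbered 82 lower and 53 higher, of which 81 and 52 were among the calls without it. AHR kept its log2 change of -0.64 with an adjusted p of 0.0618, CYP1A1 was at 0.11 and TIPARP at 0.102. In that fit the differences between the lines for TIPARP and VIM had adjusted p of 0.074 and 0.104, and the differences for the other named genes kept their side of the threshold.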
